A study of Mus musculus with 22 samples.

Results

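The Ugt2b genes analysed here are 7 members of the UDP-glucuronosyltransferase 2B family that lie side by side on mouse chromosome 5: Ugt2b34, Ugt2b1, Ugt2b35, Ugt2b36, Ugt2b5, Ugt2b37 and Ugt2b38. They were taken by name from 21887 protein-coding genes, and all 7 were found. They were proposed because lamin A/C regions of this cluster had been seen to differ between the genotypes, so the lamin A/C values below describe the genes and carry no test. Mouse dermal fibroblasts, the matrix-forming cells of the skin, were wildtype (WT) or lacked Lap2alpha (KO), the LAP2 protein of the nuclear interior that binds A-type lamins. Chromatin immunoprecipitation with sequencing used 2 antibodies against lamin A/C (3A6 and E1), antibodies against BRG1 and CHD4 in both genotypes, and antibody 1H11 against Lap2alpha in WT cells. Cells of every group were crosslinked with DSG and formaldehyde, and chromatin was sonicated for 16 or 20 cycles. Each combination of genotype, antibody and cycles was 1 library and gave 1 list of regions, 18 lists in all. The samples held no Lap2alpha library from KO cells, and the 4 input libraries were not analysed here. The labels do not say how the knockout was made, how many cultures or animals were used, or whether the cells are 1 clone.

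UDP-glucuronosyltransferases are enzymes of the endoplasmic reticulum that attach glucuronic acid to fat-soluble molecules so that these can be excreted in bile and urine. The 2B enzymes act on steroid hormones, bile acids and drugs, and their genes are chiefly active in liver, with some activity in kidney and gut; they are not genes of fibroblast identity. Silent tissue-specific clusters of this kind often lie in lamina-associated domains, long stretches of chromatin that touch the nuclear lamina. A-type lamins line the nuclear envelope and are also present in the nuclear interior, where Lap2alpha binds them.

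The 7 genes span 534.4 kb (chromosome 5, 86889770 to 87424203, GRCm38). In chromosome order Ugt2b34 runs from 86889770 to 86906937, Ugt2b1 from 86916639 to 86926503, Ugt2b35 from 87000860 to 87013274 and Ugt2b36 from 87065927 to 87092555. Ugt2b5 follows from 87124946 to 87140340, Ugt2b37 from 87240492 to 87254788 and Ugt2b38 from 87409939 to 87424203. Ugt2b35 is on the forward strand and the other 6 are on the reverse strand. The related gene Ugt2a3 lies between Ugt2b37 and Ugt2b38.

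What the 7 genes share in sequence was read from their promoter windows (RefSeq, GRCm38.p6, 250 bases before to 50 after the annotated start site), which were found for all 7. The stretch around a motif common to all of them is printed here, 5' to 3' on each gene's own strand, with the motif GTTANNNNTTAAC in capitals; all printed bases lie before the start site.
Ugt2b34 (chr5:86906978-86907030, reverse strand): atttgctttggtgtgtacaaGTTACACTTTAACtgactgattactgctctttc
Ugt2b1 (chr5:86926560-86926612, reverse strand): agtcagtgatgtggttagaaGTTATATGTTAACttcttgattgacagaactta
Ugt2b35 (chr5:87000770-87000822, forward strand): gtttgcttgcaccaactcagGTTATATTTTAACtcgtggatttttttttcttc
Ugt2b36 (chr5:87092587-87092639, reverse strand): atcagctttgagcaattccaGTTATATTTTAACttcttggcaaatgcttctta
Ugt2b5 (chr5:87140369-87140421, reverse strand): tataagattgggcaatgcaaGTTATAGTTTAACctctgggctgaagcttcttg
Ugt2b37 (chr5:87254834-87254886, reverse strand): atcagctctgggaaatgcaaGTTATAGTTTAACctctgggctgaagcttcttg
Ugt2b38 (chr5:87424235-87424287, reverse strand): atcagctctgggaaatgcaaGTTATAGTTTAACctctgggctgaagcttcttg

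The form of the motif, 4 bases, 4 bases of any kind and 5 bases, was chosen after these 7 sequences had been read, so its presence in all of them is fixed by that choice. Of 1650 patterns of this form present in any of the 7 windows, it was the only 1 present in all 7. Searched on both strands (GTTAANNNNTAAC on the other), it was present in the windows of 60 of 27025 genes (0.222%). In the 7 genes it starts 61 to 89 bases before the start site. HNF1, a transcription factor of liver and kidney, is known to bind palindromic sites with half-sites of this kind; a match of letters is not a bound site, and HNF1 was not mapped here. Of 13 other glycosyltransferase genes with a window, 1 held the motif (Ugt3a1), and the neighbours Ugt2a1, Ugt2a2 and Ugt2a3 did not. The printed stretches of Ugt2b37 and Ugt2b38 are the same letter for letter. Over the whole 300 bases, Ugt2b5, Ugt2b37 and Ugt2b38 were 76.5% to 87.3% identical to each other, while the 18 other pairs were 50.3% to 63.5% identical. Reads from near-identical stretches of such copies cannot be placed with certainty, and how the authors treated them is not given in the sources used here, so values of single members, those 3 above all, are uncertain in this respect, and its part in them was not tested.

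Before the members, the lists themselves were looked at. They held 7283 to 233769 regions, the shortest being KO CHD4 at 20 cycles. Lamin A/C regions covered 0.442% to 2.50% of the chromosomes in WT and 1.08% to 3.06% in KO, more in KO in all pairs except 3A6 at 20 cycles. In that pair alone of the 4 lamin A/C pairs, the 2 lists were also of different form: the KO list had overlapping intervals and the WT list had none. Regions of BRG1, which sits at active gene ends, lay at the ends of 11 or 12 of 12 fibroblast marker genes in each of the 4 BRG1 lists and of 1 to 3 of 8 hepatocyte genes, with Alb, Hnf4a, Cyp3a11, Tat and Serpina1a in none. They lay at 0 or 1 of 4 keratinocyte, 1 or 2 of 3 endothelial and 0 to 2 of 3 leukocyte genes. Of all protein-coding genes, 36.2% and 63.1% had a BRG1 region at an end in WT at 16 and 20 cycles. In KO the shares were 54.4% and 58.9%. The endothelial and leukocyte lists are too short to be set apart from these shares. Peak lists do not show whether Lap2alpha was lost, so genotype labels were taken as given.

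Lamin A/C was spread over the whole Ugt2b cluster in WT cells and was sparser there in KO cells. Values of 4 lists are given throughout in the order 3A6 16 cycles, 3A6 20 cycles, E1 16 cycles, E1 20 cycles. In WT, regions covered 5.56%, 13.7%, 2.43% and 11.3% of the span. In KO the same 4 values were 2.38%, 3.80%, 1.37% and 6.82%. All 4 pairs were lower in KO, although the 2 groups overlap because lists at 20 cycles were higher than lists at 16 cycles. The mean fell from 8.24% ± 5.16 to 3.60% ± 2.37, a difference of -4.65 ± 3.76 percentage points (SD, n = 4 pairs). Without 3A6 at 20 cycles, the pair of unlike list form, it was -2.901 ± 1.72 points. Here and below, an SD over pairs or lists is a spread over 2 antibodies and 2 sonication lengths, not over repeated cultures.

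Set against the coverage of all chromosomes in the same list, the contrast was more even. The WT span was covered 6.29, 5.47, 5.50 and 6.12 times as densely as the chromosomes. In KO the ratios were 1.44, 1.67, 1.27 and 2.23. The chromosome coverage itself was 0.884%, 2.50%, 0.442% and 1.85% in WT and 1.655%, 2.27%, 1.08% and 3.06% in KO. In the pairs where it was higher in KO, part of the gap between the ratios came from more coverage outside the cluster. On the scale of these ratios every WT list stood above every KO list. The mean log2 difference was -1.84 ± 0.32 (n = 4 pairs; 0.01 percentage points were added to both terms).

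**Figure D1:**
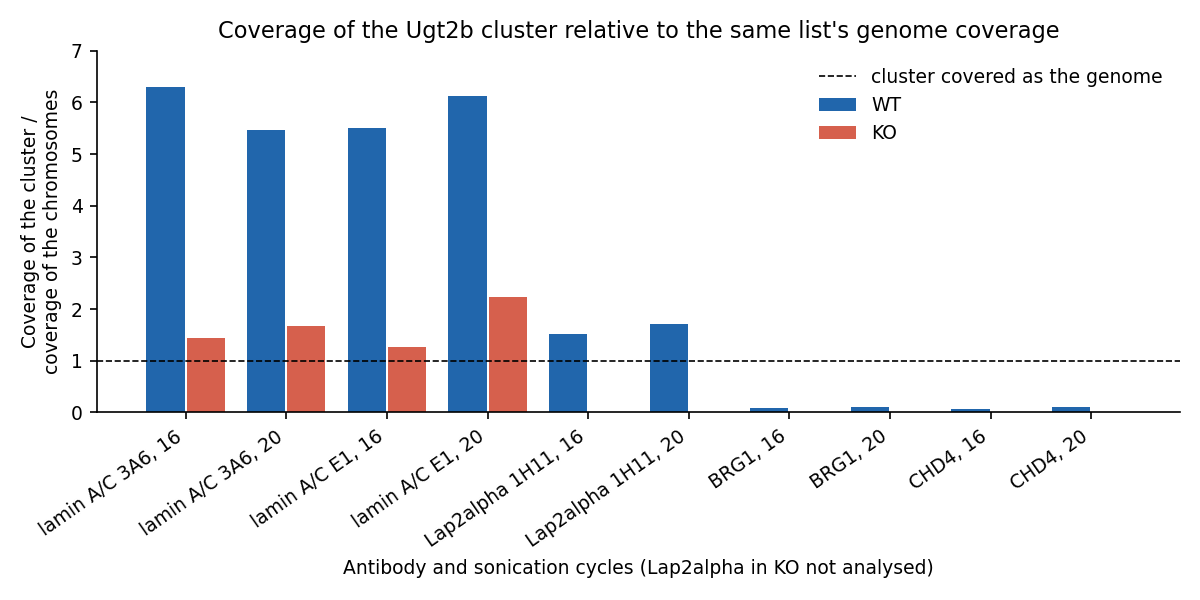
Coverage of the Ugt2b cluster divided by the coverage of all chromosomes in the same list (y axis, fold), for each antibody and sonication length (x axis), WT blue and KO red, 1 list per bar. WT lamin A/C bars stand at 5.47 to 6.29 and KO bars at 1.27 to 2.23; Lap2alpha stands at 1.51 and 1.72, and all BRG1 and CHD4 bars lie below the dashed line at 1.

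The change was in both the number and the width of the regions. The span held 105, 179, 48 and 168 regions in WT and 56, 76, 30 and 112 in KO. Median widths were 266, 358, 270 and 350 bp in WT and 216, 277, 235 and 312 bp in KO. Every pair thus had fewer and narrower regions in KO. Over all regions of the lists, median widths were 252, 322, 254 and 316 bp in WT and 224, 254, 252 and 332 bp in KO. With 3A6 the narrower regions were therefore not particular to the cluster. The E1 lists as a whole were about as wide in KO at 16 cycles and wider at 20 cycles. Bases covered in at least 2 of the 4 lists made up 6.14% of the span in WT and 1.73% in KO.

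The 7 genes were next taken one by one, each as its body plus 1 kb on each side. All 7 held a lamin A/C region in all 4 WT lists, which was true of 5.64% of the 16853 genes of at least 5 kb. The single WT lists had a region in 15.9%, 15.5%, 8.79% and 11.4% of those genes. In the KO lists 7, 7, 2 and 6 members held one, where 68%, 52.1%, 26.6% and 23.3% of all genes did. In all 4 KO lists 2 of 7 did, Ugt2b36 and Ugt2b38, against 15.7% of those genes. In WT the mean coverage of single members was 2.42% to 13.1%, with a median of 7.32%, while the median over all genes was 0 and the 95th percentile 2.44%. In KO the members' median was 3.06% and that of all genes 0.54%.

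Coverage was lower in KO in all 4 pairs for 6 of the 7 genes and higher in all 4 for none. Of all 16853 genes, 0.605% were lower in all 4 pairs and 9.93% higher. A gene can be lower in all 4 pairs only if it holds a region in all 4 WT lists, as the 7 members do; of the 950 genes that hold one, 102 (10.7%) were lower in all 4 pairs, and the median difference over the 950 was 0.29 percentage points. Since the members were chosen on this contrast, nothing is read from the difference between these shares. In the 4 pairs taken singly, 6, 7, 7 and 6 members were lower in KO, where 5.22%, 7.06%, 2.9% and 2.91% of all genes were lower and 64.1%, 46%, 24.9% and 20.9% higher. The median of the members' mean differences was -4.07 percentage points, beside 0.45 over all genes. The KO groups of these genes overlapped the WT groups in every case: in none of the 7 did the lowest WT list lie above the highest KO list, which held for 0.0831% of all genes.

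**Figure D2:**
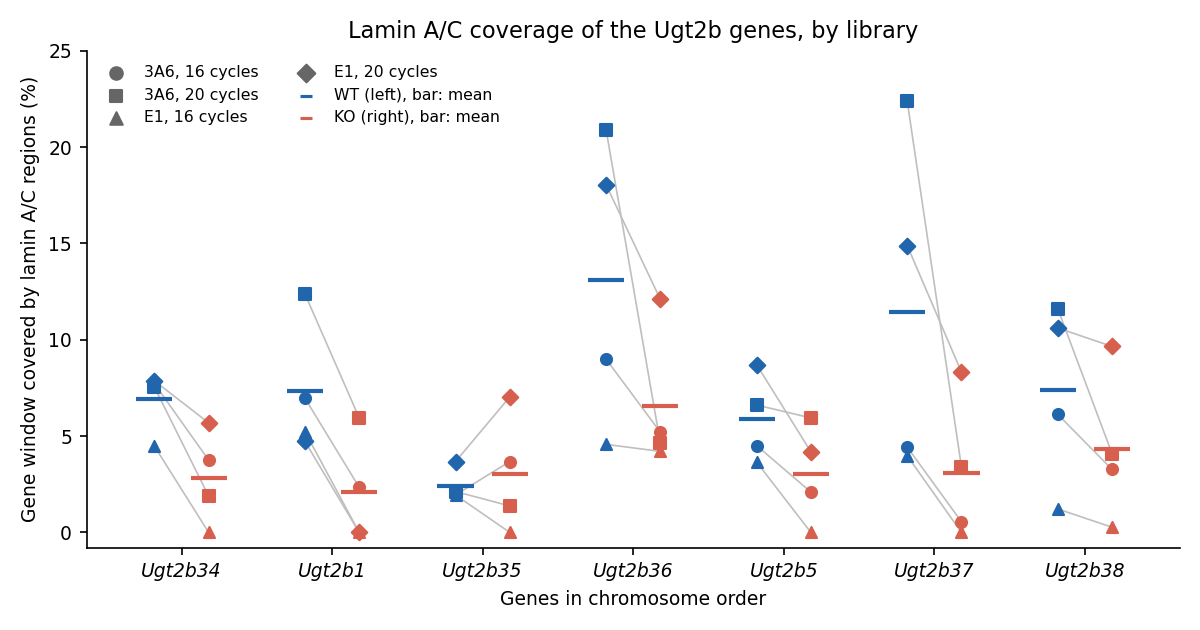
Percent of each gene window covered by lamin A/C regions (y axis) for the 7 genes in chromosome order (x axis), WT on the left in blue and KO on the right in red; symbols mark antibody and cycles, grey lines join WT and KO lists of the same antibody and cycles and bars are means of 4 lists. Lines fall in all 4 pairs for every gene except Ugt2b35, where 2 fall and 2 rise.

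Ugt2b37, the next to last gene of the cluster, had the largest difference of the 7. In WT it was covered at 4.43%, 22.4%, 3.98% and 14.9%. In KO it was covered at 0.552%, 3.40%, 0 and 8.32%. The WT lists at 20 cycles were far above those at 16 cycles, and the KO E1 list at 20 cycles was above both WT lists at 16 cycles. The difference was -8.35 ± 7.20 points and rested in large part on 3A6 at 20 cycles, the pair of unlike list form. Without that pair it was -4.81 ± 1.52 points. Of 16853 genes, 16 had a lower mean difference. One stretch of 121 bp inside the gene body (chromosome 5, 87250065 to 87250185) lay in all 4 WT lists and in no KO list.

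Ugt2b36, the longest member at 26.6 kb, had the highest WT coverage. Its WT values were 8.99%, 20.9%, 4.57% and 18.04%, and its KO values were 5.21%, 4.64%, 4.21% and 12.1%. It was the only member in which all 4 KO lists stayed above 4%. The difference was -6.59 ± 6.84 points, smaller than its SD, and was -3.36 ± 2.81 without 3A6 at 20 cycles. With E1 at 16 cycles it was only -0.36 points.

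Ugt2b1, the shortest member at 9.87 kb, had the most even difference. It was covered at 6.96%, 12.4%, 5.22% and 4.72% in WT and at 2.34%, 5.95%, 0 and 0 in KO. Neither KO E1 list held a region in the gene, so both E1 differences are the WT values themselves. Its window held only 11 regions over the 4 WT lists and 3 over the 4 KO lists, so the evenness rests on few regions. The difference was -5.25 ± 0.83 points, with single pairs between -6.42 and -4.62. Its immediate neighbour Ugt2b34, the first gene of the cluster, went from 7.72%, 7.54%, 4.48% and 7.87% to 3.76%, 1.89%, 0 and 5.69%, a difference of -4.07 ± 1.44 points. In both genes all 4 pairs moved by more than 2 points.

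Ugt2b5 and Ugt2b38 had smaller differences. Ugt2b5 was covered at 4.51%, 6.61%, 3.65% and 8.70% in WT and at 2.09%, 5.94%, 0 and 4.18% in KO, a difference of -2.81 ± 1.67 points. Ugt2b38, the last gene, stood at 6.12%, 11.6%, 1.22% and 10.6% in WT and at 3.27%, 4.09%, 0.271% and 9.65% in KO. Its difference of -3.07 ± 3.10 points was as large as its spread and was -1.59 ± 1.10 without 3A6 at 20 cycles. With E1 it moved by less than 1 point at both lengths.

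Ugt2b35, the one member on the forward strand, did not share the pattern. It was covered at 1.94%, 2.12%, 1.94% and 3.68% in WT, the lowest mean of the 7 genes, and at 3.68%, 1.37%, 0 and 7.03% in KO. Of its pairs 2 (3A6 at 16 cycles and E1 at 20 cycles) were higher in KO and the other 2 lower, so the difference of 0.60 ± 2.39 points was within the spread. Only 7 regions over the 4 WT lists and 7 over the 4 KO lists lay in its window, and no lamin A/C region lay within 1 kb of either end in any list.

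By mean WT coverage the order was Ugt2b36 (13.1% ± 7.63), Ugt2b37 (11.4% ± 8.88), Ugt2b38 (7.39% ± 4.76), Ugt2b1 (7.32% ± 3.50), Ugt2b34 (6.90% ± 1.62), Ugt2b5 (5.87% ± 2.27) and Ugt2b35 (2.42% ± 0.84). Neighbours in this order differed by less than their SDs over lists, apart from Ugt2b5 and Ugt2b35, whose ranges only just overlapped (lowest 3.65% for Ugt2b5, highest 3.68% for Ugt2b35). Read list by list, Ugt2b5 stood above Ugt2b35 in every WT list, and the other WT neighbours changed order between lists. In KO the order was Ugt2b36 (6.54% ± 3.73), Ugt2b38 (4.32% ± 3.92), Ugt2b37 (3.07% ± 3.81), Ugt2b5 (3.06% ± 2.58), Ugt2b35 (3.02% ± 3.08), Ugt2b34 (2.83% ± 2.44) and Ugt2b1 (2.07% ± 2.81), and no 2 neighbours differed beyond their spread.

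Regions were then counted at the gene ends, within 1 kb of the first or last base. Of the 7 genes 5, 6, 4 and 6 had a lamin A/C region at an end in WT, where 4.41%, 8.96%, 2.08% and 6.92% of all genes had one. In KO the numbers were 3, 5, 1 and 5, where 22.1%, 17.9%, 7.01% and 13.4% of all genes had one. The members thus had fewer such ends in KO in every pair, while the share over all genes was higher in KO in every pair. Over the 4 lists, 21 of 28 gene and list combinations were positive in WT and 14 in KO.

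Both ends of the genes contributed. At the start-site end 10 of 28 combinations were positive in WT and 6 in KO, and at the 3' end 17 and 10. By list, start-site regions were found at 3, 2, 2 and 3 members in WT (2.7%, 6.6%, 1.23% and 5% of all genes with a known strand) and at 1, 2, 1 and 2 in KO (12.9%, 11.1%, 3.93% and 9.34%). Regions at the 3' end were found at 4, 5, 2 and 6 members in WT (3.14%, 6.06%, 1.43% and 4.82%) and at 2, 3, 1 and 4 in KO (12.8%, 11.1%, 4.54% and 9.4%). Ugt2b36 had a region near its start site in 4 WT and 3 KO lists, the most of the 7. Ugt2b5 had none near its start site in any lamin A/C list, but one near its 3' end in 4 WT and 2 KO lists. Ugt2b38 likewise had a 3' region in all 4 WT lists, and a 198 bp stretch inside that end (chromosome 5, 87410253 to 87410450) lay in all of them and in up to 2 KO lists. The promoter windows with the motif above were touched in few lists: that of Ugt2b34 in both WT 3A6 lists (62.3% and 43.3% of the window) and in WT Lap2alpha at 20 cycles (68.3%), that of Ugt2b1 in KO 3A6 at 20 cycles (99.3%), and that of Ugt2b36 in WT E1 at 20 cycles (0.333%) and KO 3A6 at 20 cycles (25%). The windows of Ugt2b35, Ugt2b5, Ugt2b37 and Ugt2b38 held no region in any of the 18 lists.

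**Figure D3:**
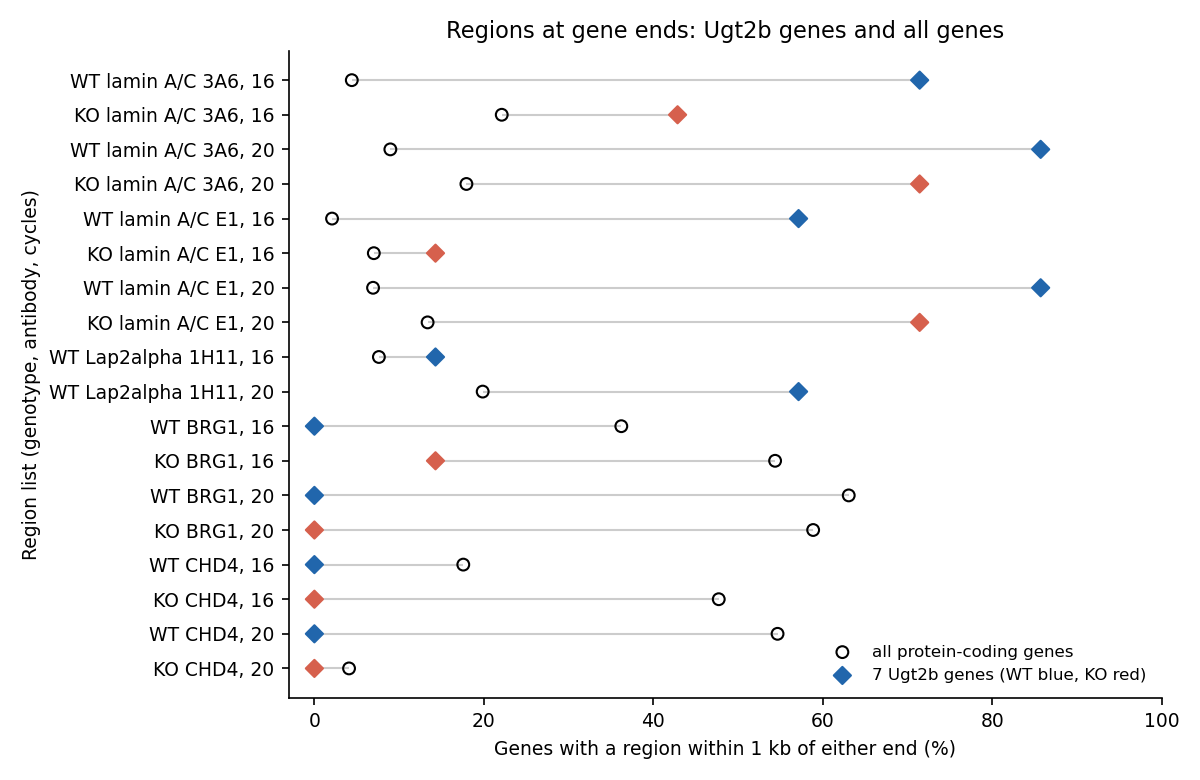
Percent of genes with a region within 1 kb of either end (x axis) in each of the 18 lists (y axis), for the 7 Ugt2b genes (diamonds, WT blue, KO red) and all 21887 protein-coding genes (open circles). Ugt2b genes lie above all genes in every lamin A/C and Lap2alpha list and below them in every BRG1 and CHD4 list. In KO E1 and WT Lap2alpha at 16 cycles this rests on 1 gene of the 7. In KO CHD4 at 20 cycles only 4.09% of all genes had such a region.

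Along the cluster the lower coverage in KO was not confined to the genes. Bodies of the 7 genes were covered at 6.48%, 13.4%, 3.91% and 11.17% in WT and intergenic sequence of the span at 5.34%, 13.9%, 2.11% and 11.5%; in KO the bodies stood at 3.28%, 3.77%, 0.867% and 7.95% and intergenic sequence at 2.22%, 3.92%, 1.48% and 6.71%. Of 27 bins of 20 kb, 17 were lower in KO in all 4 pairs, 26 were lower on average and none was higher in all 4. The bin with the largest difference, -8.46 points (11.02% in WT and 2.57% in KO), lay in the stretch between Ugt2b5 and Ugt2b37. The one bin that was higher on average, at 2.81% in WT and 3.80% in KO, holds most of Ugt2b5.

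The cluster has a sharp left border in WT. In the 20 kb next to it, before Ugt2b34, WT coverage was 2.54% on average, and in the 9 bins before that 0 to 0.66%; the first bin of the cluster stood at 7.19%. The 200 kb before the cluster were covered at 0.555%, 0.87%, 0 and 0.39% in WT and at 4.07%, 2.31%, 0.413% and 0.698% in KO. All 4 pairs were higher in KO there, by 1.42 ± 1.49 points, the opposite direction to the cluster; without 3A6 at 16 cycles the difference was 0.72 ± 0.63. Mean coverage of the cluster over that of the 200 kb before it was therefore 8.24% against 0.45% in WT and 3.60% against 1.87% in KO. On the right there was no such border: the 200 kb after the cluster were covered at 5.71% ± 3.60 in WT and 3.57% ± 1.99 in KO, lower in KO in all 4 pairs, with a difference of -2.14 ± 2.73 points on average and of -0.79 ± 0.48 without 3A6 at 20 cycles.

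**Figure D4:**
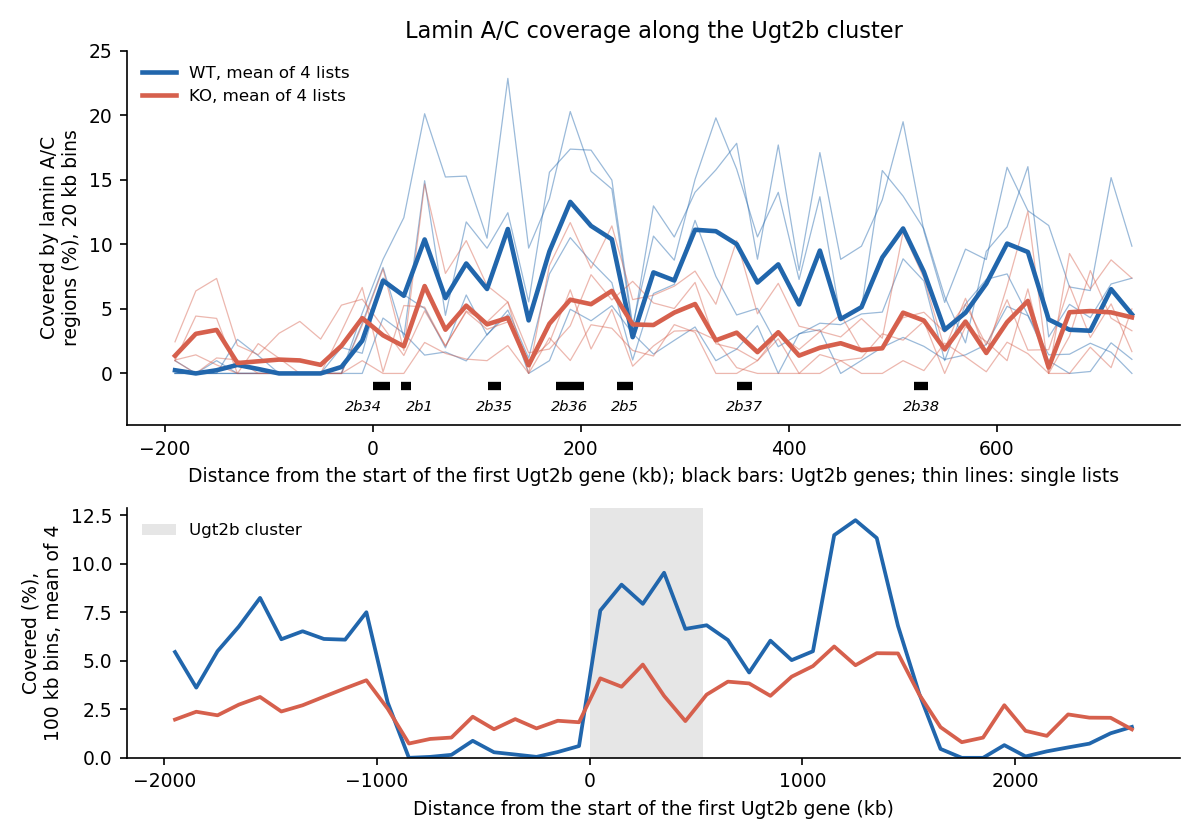
Percent covered by lamin A/C regions (y axes) against the distance from the start of the first Ugt2b gene in kb (x axes), in 20 kb bins with the genes as black bars (top) and in 100 kb bins with the cluster shaded (bottom); thick lines are means of 4 lists, thin lines single lists, WT blue and KO red. WT coverage steps up at the left edge of the cluster, from 0.61% to 7.59% in adjoining 100 kb bins, where KO goes from 1.83% to 4.09%.

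In the wider neighbourhood the cluster was the left part of a longer covered stretch. In 100 kb bins, WT coverage stood at 6.64% to 9.53% over the first 6 bins from the cluster's start and KO coverage at 1.89% to 4.80%, all 6 lower in KO. Beyond it, coverage in WT went on at 4.40% to 6.07% past the sulfotransferase genes and rose to 12.2% at about 1250 kb from the cluster's start, where KO stood at 4.77%. In KO the bins from 650 to 1050 kb stood at 3.19% to 4.72%. In the bins 750 kb and 1750 kb from the cluster's start, before and after it, WT was at 0.05% and 0, and KO at 0.97% and 0.81%. Of the 20 bins before the cluster, the 11 farthest from it were lower in KO and the 9 nearest to it higher. The 9 nearest stood at 0 to 0.88% in WT. The 11 farthest, 950 to 1950 kb before the cluster's start, stood at 2.86% to 8.24% in WT. Some of them thus reached the WT range of the first 6 bins from the cluster's start. The largest difference among these 11 was -5.102 points, in the bin 1550 kb before the cluster's start.

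The nearest genes on either side were read in the same windows. Before the cluster lie Ythdc1, which encodes a reader of methylated adenosine in RNA, and 4 genes of the Tmprss11 serine proteases of epithelia. Their WT means were 0 to 0.24% and their KO means 1.03% to 2.96%; Tmprss11e (0.12% ± 0.23 in WT, 2.96% ± 2.25 in KO) and Tmprss11f (0.08% ± 0.15 and 1.76% ± 0.97) were higher in KO in all 4 pairs. Ythdc1 had no WT region, and in KO only with 3A6 at 16 cycles (4.12%). Inside the cluster Ugt2a3 was at 4.75% ± 2.88 in WT and 1.09% ± 1.26 in KO, lower in 3 of 4 pairs. After the cluster Ugt2a1 (6.08% ± 2.95 and 2.03% ± 1.49) and Ugt2a2 (5.30% ± 3.20 and 2.53% ± 2.04), which overlap each other and share most of their window, were lower in all 4 pairs. Sult1b1, a sulfotransferase gene, was lower in 3 pairs, and the next 2 genes, Sult1d1 and Sult1e1, were not lower on average (differences of 1.79 ± 3.11 and 1.00 ± 2.44 points). Of the 18 genes of chromosome 5 lower in all 4 pairs (1.65% of 1088), 9 lay within 2 Mb of the start of the cluster, and 6 of these 9 are the Ugt2b genes. Those 6 were chosen on this contrast, and the 9 also include the overlapping Ugt2a1 and Ugt2a2. Nothing is therefore read from how many lie near the cluster.

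**Figure D5:**
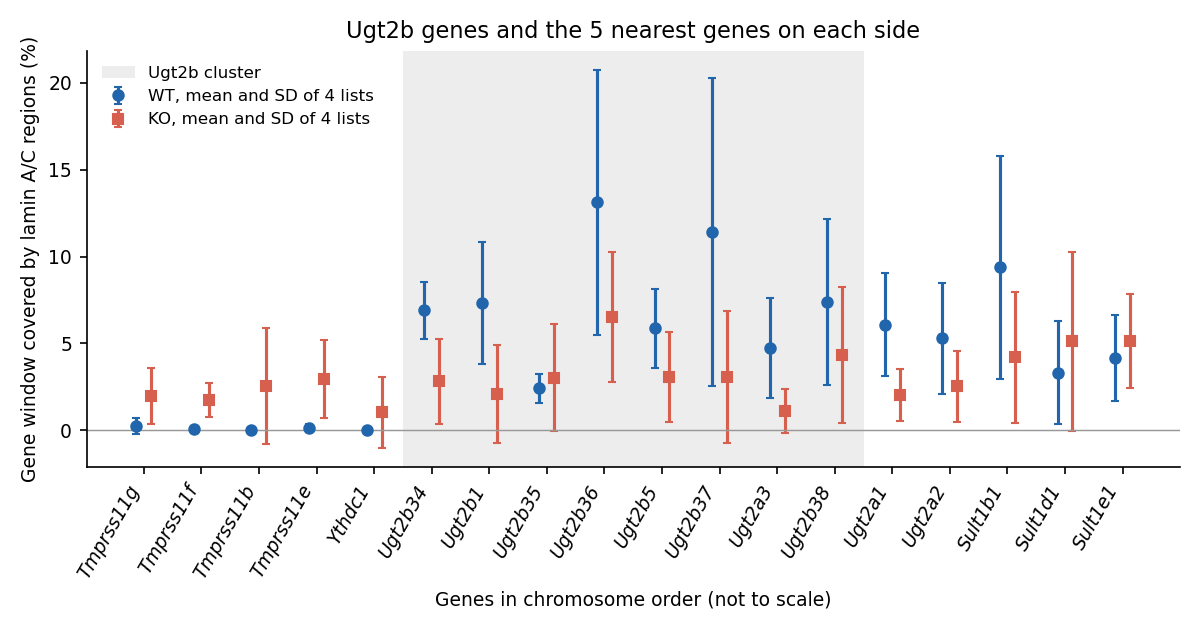
Lamin A/C coverage of gene windows (y axis, percent, mean and SD of 4 lists) for the Ugt2b genes, Ugt2a3 and the 5 nearest genes on each side in chromosome order (x axis, not to scale), WT blue circles and KO red squares. WT means left of the grey cluster are at most 0.24% and KO means there 1.03% to 2.96%; within it KO means lie below WT means for every gene except Ugt2b35.

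The other listed genes of sugar transfer and sugar supply mostly lacked a lamin A/C region in some WT list, and so could not be lower in KO in all 4 pairs. Outside the neighbourhood of the cluster only Ugt3a1, 1 of 17 such genes, held a region in all 4 WT lists, and it was higher in KO in 3 pairs and lower in 1. Of 15 other glycosyltransferase genes, 2 were lower in all 4 pairs, the neighbours Ugt2a1 and Ugt2a2, and 2 were higher, Ugt3a2 on chromosome 15 (1.06% ± 0.91 in WT and 6.97% ± 4.113 in KO) and Ugt8a, which makes galactolipids of myelin (0 in WT and 1.40% ± 0.43 in KO). The 9 Ugt1a genes, which share exons at 1 locus of chromosome 1 and include the bilirubin enzyme Ugt1a1, held no WT lamin A/C region. None of the 5 genes listed for the supply or removal of sugars (Ugp2, Ugdh, Slc35d1, Slc35a3 and Gusb) held one in WT either, and none moved one way in all 4 pairs. Of 8 sulfotransferase genes none was lower or higher in all 4. Another cluster of enzyme genes, the Cyp2j genes of chromosome 4, had similar WT coverage, with a median of 5.72% over the 7 genes found, but a KO median of 9.44%. Of its 7 genes 2, Cyp2j6 and Cyp2j12, were higher in KO in all 4 pairs, beside 9.93% of all genes, and none was lower. The antibodies differed there: all 7 Cyp2j genes were higher in KO in both E1 pairs (median differences of 5.09 and 12.05 points), whereas 3 of 7 were lower with 3A6 at 16 cycles and 5 of 7 at 20 cycles (medians of 0.01 and -2.84 points).

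The genes whose values over the 8 lamin A/C lists were most like the mean of the 7 lay on other chromosomes. By Pearson's r they were Gda (0.98, chromosome 19), which encodes guanine deaminase, Iqub (0.98, chromosome 6), the ion channel gene Trpm3 (0.97, chromosome 19), the cytochrome P450 gene Cyp2c39 (0.96, chromosome 19) and Aadacl3 (0.96, chromosome 4). Gda was at 8.86% ± 5.38 in WT and 4.13% ± 2.72 in KO. All 5 were lower in all 4 pairs, beside 0.605% of all genes of at least 5 kb. They were picked for likeness to a mean that is itself lower in all 4 pairs, so this count largely follows from the choice. These r values describe 8 lists that differ together in antibody, cycles and length, and 99 of 12898 genes had an r above 0.9. Within the cluster, r with the mean of the other 6 was 0.94 for Ugt2b36, 0.93 for Ugt2b37, 0.92 for Ugt2b38, 0.81 for Ugt2b34, 0.79 for Ugt2b5, 0.56 for Ugt2b1 and 0.28 for Ugt2b35. Genes inside and after the cluster were also alike: r with the mean of the 7 was 0.95 for Sult1b1, 0.91 for Ugt2a2, 0.89 for Ugt2a1 and 0.87 for Ugt2a3. It was 0.53 for Sult1d1 and 0.51 for Sult1e1, and -0.52 to -0.20 for the 5 genes before the cluster.

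Positions of single regions overlapped in part between lists. Of WT regions in the span, 29.5%, 17.9%, 8.33% and 42.9% overlapped a KO region of the same antibody and cycles by at least 1 bp, and of KO regions 55.4%, 43.4%, 13.3% and 65.2% overlapped a WT region. Between antibodies in WT, 8.57% of 3A6 and 18.8% of E1 regions overlapped at 16 cycles and 36.9% and 42.3% at 20 cycles; in KO the shares were 1.79% and 3.33%, then 15.8% and 10.7%. Only 421 bp of the span, in 4 stretches, lay in all 4 WT lists, and 198 bp, in 1 stretch, in all 4 KO lists.

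Lap2alpha itself was mapped in WT cells only. It covered 0.997% and 1.66% of the span at 16 and 20 cycles, 1.51-fold and 1.72-fold the coverage of the chromosomes in the same lists. At 16 cycles Ugt2b35 (2.66%), Ugt2b1 (1.89%) and Ugt2b36 (0.692%) held a Lap2alpha region. At 20 cycles Ugt2b37 (5.63%), Ugt2b5 (4.71%), Ugt2b34 (3.63%), Ugt2b36 (2.201%) and Ugt2b38 (1.88%) did. Of all genes, 36.1% and 63.6% held one at 16 and 20 cycles. Ugt2b36 was the only member with one at both lengths, and 1 of the 19 regions of the span at 16 cycles overlapped one of the 29 at 20 cycles. Of Lap2alpha regions in the span, 26.3% and 69.0% overlapped a WT 3A6 region at 16 and 20 cycles and 10.5% and 24.1% a WT E1 region. Of the lamin A/C regions 4.76% and 11.17% (3A6) and 4.17% and 4.17% (E1) overlapped a Lap2alpha region. Lap2alpha gene-end regions lay at 1 and 4 of the 7 genes, where 7.61% and 19.9% of all genes had one.

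The ATPases of the SWI/SNF and NuRD remodelling complexes, BRG1 and CHD4, had few regions in the cluster in either genotype. BRG1 covered 0.122% and 0.39% of the span in WT at 16 and 20 cycles and 0.0389% and 0.0371% in KO, with 3 and 8 regions in WT and 1 and 1 in KO. CHD4 covered 0.0636% and 0.224% in WT, with 1 and 4 regions, and held no region in KO; the KO list at 20 cycles was the very short one, while the KO list at 16 cycles held 88788 regions. Relative to the chromosomes, the span was covered 0.07-fold to 0.11-fold in the WT lists of both proteins and 0.0141-fold and 0.0116-fold in the KO BRG1 lists. Of the members, Ugt2b37 (3.38%, 2 regions) and Ugt2b34 (1.18%, 1 region) held BRG1 in WT at 20 cycles, Ugt2b1 (1.75%, 1 region) in KO at 16 cycles and Ugt2b36 (0.929%, 1 region) CHD4 in WT at 20 cycles. Of all genes, 61.1% and 88.1% held a BRG1 region in WT at 16 and 20 cycles and 79.1% and 84.6% in KO. For CHD4 the shares were 43.2% and 78.6% in WT and 74% and 16.6% in KO. The mean BRG1 difference over the 7 genes was -0.20 ± 0.64 points, 0.25 at 16 cycles and -0.65 at 20 cycles, and that of CHD4 -0.07 ± 0.09 (n = 2 pairs each). One gene-end region, of BRG1 at Ugt2b1 in KO at 16 cycles, was found over the 8 lists. Of all genes, 36.2% and 63.1% had a BRG1 region at an end in WT and 54.4% and 58.9% in KO, and 17.6% and 54.7% had a CHD4 region at an end in WT and 47.7% and 4.09% in KO.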

How the data were processed

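The authors deposited 1 list of intervals per library with chromosome, start and end in base pairs (GRCm38, per the submitters' processing notes). Other deposited values (heights, scores, read depth) are not in the lists, so all regions count alike, longer lists can come from more reads, and depth is unknown. Tools named in the submitters' processing notes are MACS2 2.1.4, HOMER 4.11.1, bedtools, deepTools and SAMtools, without their roles; the threshold and any pooling were not stated.

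Intervals of width 0 (1 to 1201 per list) and mitochondrial ones were left out and overlapping intervals, present in 7 lists, were merged. Percent coverage of each gene (RefSeq table, body plus 1 kb each side), of the cluster and of bins, and regions within 1 kb of gene ends, were computed per list with Python 3.11.15 and numpy 2.4.6, for all 21887 protein-coding genes; comparisons across genes used the 16853 of at least 5 kb. WT and KO lists were paired on antibody and cycles. Every group is 1 library, so no test was made. Motif and identity of promoters (Biopython 1.88, global alignment) came from the RefSeq promoter table, which also gave strand. Interval functions were checked against brute force on simulated intervals.

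All 7 members were named; other names followed a written rule (genes of the pathway lists within 1 Mb of the cluster or moving one way in all 4 pairs, the 5 nearest genes on each side, and the 5 with the highest r). The promoter motif, the stretches shared by all lists and the wider bins were chosen after their values were seen. The members and lists were chosen with earlier results of these data known. Alternatives were wider merging, a minimum width of 200 bp, equal numbers of the widest regions, scaling to the genome, other windows and bins, single antibodies or lengths, and each pair left out.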

Additional observations from a re-analysis of the deposited data

How the results depend on the processing

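Lamin A/C coverage of the 7 genes stayed lower in KO under every alternative run, at -5.56 to -2.26 percentage points against -4.22 as reported, and that of the whole cluster at -7.18 to -2.12 against -4.65. Leaving out each pair in turn gave -4.68 to -2.95 for the genes and -5.84 to -2.901 for the cluster, the smallest without 3A6 at 20 cycles. Because all 4 pairs were lower in KO, only the size and not the sign could change when pairs were left out or split. Equal numbers of the widest regions gave -5.25 and -5.68. The KO list was the longer one in all 4 lamin A/C pairs, so only KO lists were shortened. This alternative could therefore only lower the KO values. Regions cut to 200 bp at their centres, an alternative chosen after seeing the data, gave -2.26 and -2.12. Leaving out pairs for the 200 kb before and after the cluster was also chosen after seeing the data; it gave 0.72 to 1.79 and -2.72 to -0.79 points. The 6 genes lower in all pairs remained so for gene bodies alone. Neither leaving out a pair nor equal numbers of regions can change this for a gene lower in all pairs, so both tell nothing here. Ugt2b35 changed sign with equal numbers (-1.002), where its difference could only fall, and without E1 at 20 cycles (-0.32). The share of bins of the cluster lower in all 4 pairs was 63.0% at 20 kb, 38.9% at 10 kb and 90.9% at 50 kb. Intervals carry no signal or depth, so a gene without a region may have had signal below the authors' threshold.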
